A study of Homo sapiens with 6 samples.

Results

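Ferritin and iron handling were described through 10 genes chosen by name, all 10 of which were found among the 22941 genes of the count table. They cover iron storage (FTH1, FTL), uptake (TFRC, STEAP3, SLC11A2), export (SLC40A1), ferritin autophagy (NCOA4), iron delivery (PCBP1) and iron sensing (ACO1, IREB2). The samples are RNA-seq libraries of HSC-3, an oral squamous carcinoma cell line, with 3 titled as biological replicates in simulated microgravity and 3 in normal gravity. Microgravity was simulated by rotation (Rotary Cell Culture System). All cells were kept in DMEM with antibiotics and 10% fetal bovine serum, a source of transferrin-bound iron, at 37 °C and 5% CO2. The labels give neither the time in culture nor whether the control cells were in suspension or attached, so rotation, vessel and reduced load cannot be told apart.

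Cells take up iron mainly as transferrin bound to the transferrin receptor TFRC. In the endosome STEAP3 reduces the iron and SLC11A2 (DMT1) carries it into the cytosol, where PCBP1 hands it to ferritin, a hollow shell of FTH1 and FTL subunits. NCOA4 brings ferritin to the autophagosome so that its iron is released in the lysosome, and ferroportin, encoded by SLC40A1, exports iron from the cell. The iron regulatory proteins ACO1 (IRP1) and IREB2 (IRP2) sense cytosolic iron and bind hairpins called iron responsive elements in messenger RNAs when iron is low. Binding in the 5′ untranslated region blocks translation, and binding in the 3′ untranslated region of TFRC protects the messenger from decay.

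Not every member carries such a hairpin, and the matches in the 5 members listed as carriers are printed here. They were searched on the sense strand of 1 GENCODE 29 transcript per gene as a C, 5 bases, CAGTGN and 5 bases that pair with the first 5 (A with T, G with C or G with T). Letters are given as DNA, 5′ to 3′, and capitals mark the bulged C and the 6-base loop.
FTH1: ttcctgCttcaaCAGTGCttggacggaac
FTL: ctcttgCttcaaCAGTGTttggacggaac
SLC40A1: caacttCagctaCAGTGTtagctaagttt
TFRC site 1: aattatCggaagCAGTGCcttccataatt
TFRC site 2: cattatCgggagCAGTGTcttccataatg
TFRC site 3: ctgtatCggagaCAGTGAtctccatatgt
TFRC site 4: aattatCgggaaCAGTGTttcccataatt
SLC11A2: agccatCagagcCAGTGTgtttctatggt

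The FTH1 match lay in the 5′ untranslated region at chr11:61967574-61967602 on the minus strand (GRCh38, as are all positions here). That of FTL lay in its 5′ untranslated region at chr19:48965335-48965363 on the plus strand, and that of SLC40A1 likewise at chr2:189580661-189580689 on the minus strand. The 4 TFRC matches lay in the 3′ untranslated region on the minus strand, at chr3:196050979-196051007, chr3:196050575-196050603, chr3:196050510-196050538 and chr3:196050463-196050491. The SLC11A2 match lay in the 3′ untranslated region at chr12:50988269-50988297 on the minus strand. All 5 stem pairs were formed in FTH1, FTL, SLC40A1 and the 4 TFRC sites, and 4 of the 5 in SLC11A2. Of 19651 protein-coding genes searched over their whole transcript, 1.23% held a match with 5 pairs and 9.7% one with at least 4. ACO1 and IREB2 each held 1 match with 4 pairs in the 3′ untranslated region, and NCOA4, STEAP3 and PCBP1 held none. A match describes letters only. SLC11A2 has transcripts that end with and without its hairpin, and the gene counts merge them.

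**Figure D1:**
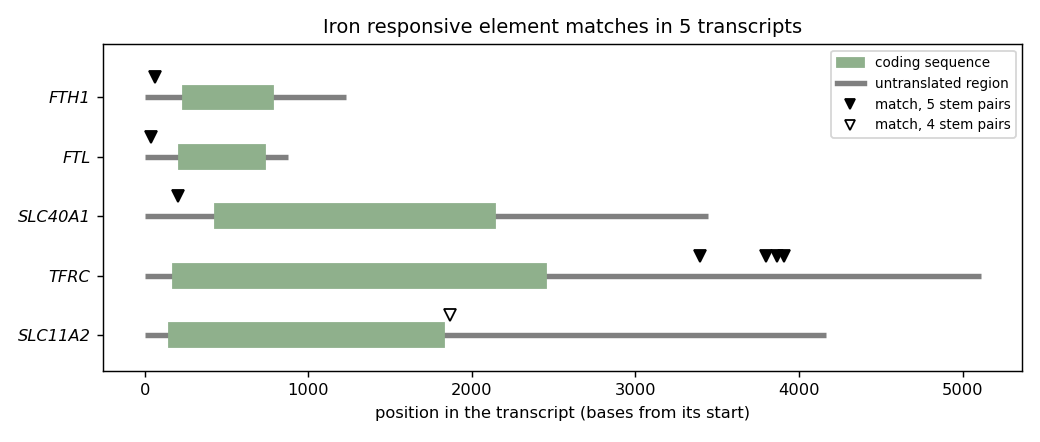
Positions of iron responsive element matches (triangles) along 5 transcripts, drawn to scale in bases from the transcript start, with the coding sequence as a box and untranslated regions as lines. The matches of FTH1, FTL and SLC40A1 lie before the coding sequence, and the 4 of TFRC and the 1 of SLC11A2 lie after it.

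Levels are normalised read counts (CPM, read counts divided by TMM-scaled library size), as mean ± SD with n = 3. A positive log2 fold change means higher in simulated microgravity, and tests are those of edgeR's quasi-likelihood method, with Benjamini-Hochberg adjustment over the 14736 genes tested and a threshold of 0.05. Total counts were between 34264008 and 36317678 in the simulated microgravity libraries and between 37276166 and 38861233 in the normal gravity libraries. Of all genes tested 57.6% passed, 28.2% higher and 29.3% lower in simulated microgravity. Normal gravity replicate 3 stood apart from the other libraries on the second principal component, with 7.59% of the variance. All 9 squamous epithelial markers examined reached 1 CPM, with summed levels of 5456 to 6412 CPM in simulated microgravity and 12083 to 20626 CPM in normal gravity, and the part of this in the results was not tested. The lower sum came mainly from KRT5, with a mean of 1011 CPM in simulated microgravity and 9712 CPM in normal gravity, and KRT14, with 292 CPM in simulated microgravity and 3106 CPM in normal gravity. The means of 5 of the 9 markers (KRT6A, KRT17, EPCAM, CDH1 and DSG3) were higher in simulated microgravity. Fibroblast markers summed to 18.1 to 18.9 CPM in simulated microgravity and 12.7 to 30.7 CPM in normal gravity, and endothelial markers to at most 5.76 CPM in any library. CPM express each gene as a share of its library. In bulk RNA, fewer cells of a type and less RNA per cell cannot be told apart.

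In simulated microgravity ferritin transcripts were higher and transferrin receptor transcripts were lower. Of the 10 members 9 had enough counts to be tested. FTH1, FTL, NCOA4 and PCBP1 rose, TFRC, SLC11A2 and ACO1 fell, and IREB2 and STEAP3 did not pass. The 7 of 9 that passed stand beside 57.6% of all genes tested, so the number of calls itself does not mark the members out. In 8 of the 9, all but STEAP3, the groups did not overlap, against 66.3% of all genes tested. The median log2 fold change of the 9 was 0.29, against -0.01 over all genes tested. This median is the value of IREB2, which did not pass, and the called members went both ways.

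**Figure D2:**
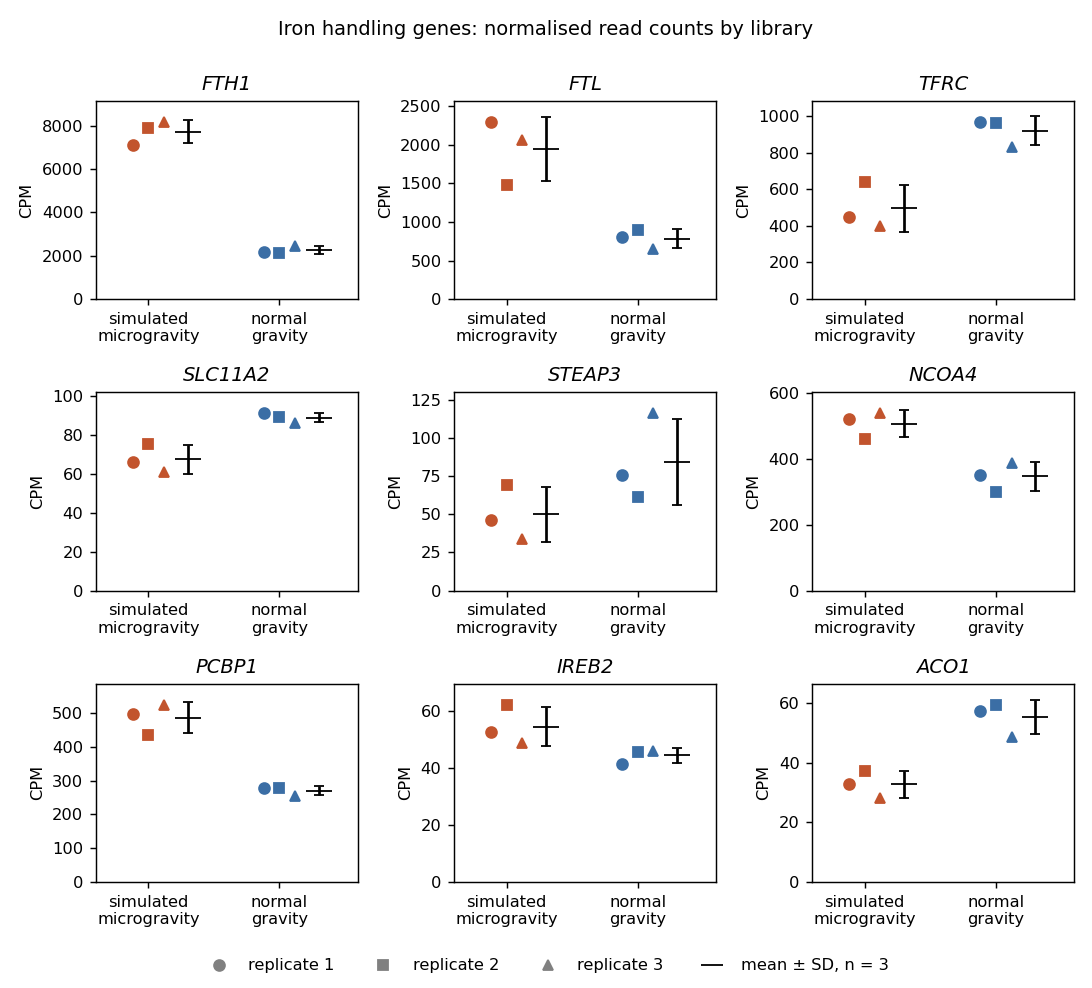
CPM of the 9 tested members in each library, simulated microgravity left and normal gravity right, with the axis from 0, a symbol per replicate number and the mean ± SD of 3 libraries beside the points. The groups are apart in every panel except that of STEAP3, and simulated microgravity replicate 2 is the lowest of its group for FTL, NCOA4 and PCBP1 and the highest for TFRC, SLC11A2, STEAP3, IREB2 and ACO1.

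FTH1 (chromosome 11, 61964285 to 61967634, RefSeq GRCh38.p14) encodes the heavy subunit of ferritin, which oxidises ferrous iron for storage. It was at 7124, 7890 and 8171 CPM in the simulated microgravity libraries, against 2155, 2138 and 2460.1 CPM in the normal gravity libraries. Each simulated microgravity library was above every normal gravity library. The mean was 7728 ± 542 CPM in simulated microgravity and 2251 ± 181 CPM in normal gravity (log2 fold change 1.78, SE 0.14, adjusted p = 3.1e-05 by edgeR). That is 3.43-fold higher, and 8.77% of genes tested had a larger log2 fold change.

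FTL (chromosome 19, 48965309 to 48966879) encodes the light subunit, which helps form the mineral core of ferritin. It was at 2295, 1479.6 and 2063 CPM in the simulated microgravity libraries, against 800.3, 892 and 653 CPM in the normal gravity libraries. The groups did not overlap, with simulated microgravity replicate 2 nearest to normal gravity. The mean was 1946 ± 420.1 CPM in simulated microgravity and 782 ± 121 CPM in normal gravity (log2 fold change 1.32, SE 0.20, edgeR adjusted p = 6.2e-04), 2.49-fold higher.

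Together the ferritin genes took 0.926%, 0.965% and 1.03% of all counts in simulated microgravity, against 0.297%, 0.305% and 0.302% in normal gravity. This summed share varied less between libraries than FTL alone. Per length of transcript, FTH1 had the rank 7 among 13756 genes in simulated microgravity and 25 in normal gravity, and FTL had the rank 15 in simulated microgravity and 61 in normal gravity. Human ferritin has many processed pseudogenes, 27 named for FTH1 and 20 for FTL in RefSeq, and none of them has a row in the count table. How reads that match both a gene and its copies were assigned is not recorded in the labels, so the ferritin counts may hold reads of copies.

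The libraries are titled as HSC-3 cells, with no other cell type named. Leukocyte and macrophage markers summed to 313 to 343 CPM in simulated microgravity and 127 to 144 CPM in normal gravity. That sum came from 3 of the 6 markers, CD68, CD14 and CSF1R. The mean of CSF1R was 47.5 CPM in simulated microgravity and 12.6 CPM in normal gravity. The part of these markers in the ferritin result was not tested. The markers PTPRC, CD3E and CD163 were near 0, at most 0.421 CPM on average in either group. The 3 erythroid markers found in the table did not reach 1 CPM in any library.

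TFRC (chromosome 3, 196049284 to 196082090) encodes the receptor that brings in transferrin. It was at 448, 641 and 400.5 CPM in the simulated microgravity libraries, against 966, 964 and 828 CPM in the normal gravity libraries. All simulated microgravity libraries were lower, and replicate 2 was the highest of them. The mean was 496 ± 127 CPM in simulated microgravity and 919 ± 79.4 CPM in normal gravity (log2 fold change -0.89, SE 0.18, edgeR adjusted p = 0.0035), 1.85-fold lower.

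SLC11A2, on chromosome 12, encodes the divalent metal transporter of the endosome. It was at 66.3, 75.3 and 60.9 CPM in the simulated microgravity libraries, against 91.2, 89.3 and 86.5 CPM in the normal gravity libraries. The groups did not overlap, but the difference was small (log2 fold change -0.40, SE 0.11, edgeR adjusted p = 0.012). Without simulated microgravity replicate 1 the call was lost (log2 fold change -0.38, edgeR adjusted p = 0.051).

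STEAP3, on chromosome 2, encodes the endosomal ferrireductase. It was at 46.6, 69.3 and 33.8 CPM in the simulated microgravity libraries, against 75.6, 61.2 and 116 CPM in the normal gravity libraries. The groups overlapped, since simulated microgravity replicate 2 lay above normal gravity replicate 2. The test did not pass (log2 fold change -0.76, SE 0.31, edgeR adjusted p = 0.066). It passed without simulated microgravity replicate 2 (-1.07, adjusted p = 0.023), without normal gravity replicate 2 (-0.94, adjusted p = 0.031) and with the DESeq2 Wald test (-0.74, adjusted p = 0.025).

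SLC40A1, on chromosome 2, encodes ferroportin, the known iron exporter of vertebrate cells. It had 2, 1 and 0 counts in the simulated microgravity libraries, against 0, 1 and 0 counts in the normal gravity libraries. The ratio of the sums, 3 counts against 1, was 3.2 after scaling, with an exact 95% binomial counting interval from 0.257 to 168. Ferroportin transcripts were therefore at the limit of detection in both groups, and a difference was not detectable at this depth. The interval covers counting error only, since reads carry no molecular identifiers.

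NCOA4, on chromosome 10, encodes the receptor that delivers ferritin to autophagosomes. It was at 521, 460.3 and 537 CPM in the simulated microgravity libraries, against 351, 300.5 and 388 CPM in the normal gravity libraries. The groups did not overlap (log2 fold change 0.55, SE 0.13, edgeR adjusted p = 0.0071), and the mean was 1.46-fold higher in simulated microgravity.

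PCBP1, on chromosome 2, encodes an iron chaperone that loads ferritin and also binds RNA. It was at 499, 436 and 525 CPM in the simulated microgravity libraries, against 278, 277 and 254 CPM in the normal gravity libraries. The groups were well apart (log2 fold change 0.85, SE 0.12, edgeR adjusted p = 3.8e-04), a 1.8-fold rise. PCBP1 is an intronless relative of PCBP2, and its antisense neighbour PCBP1-AS1 had 3.8 ± 0.294 CPM in simulated microgravity and 2.82 ± 0.292 CPM in normal gravity. With the strand setting unknown, reads of the pair cannot be told apart.

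ACO1, on chromosome 9, encodes the iron regulatory protein that becomes cytosolic aconitase when it holds an iron-sulfur cluster. It was at 32.9, 37.3 and 28.2 CPM in the simulated microgravity libraries, against 57.3, 59.4 and 48.6 CPM in the normal gravity libraries. The groups did not overlap (log2 fold change -0.75, SE 0.14, edgeR adjusted p = 0.0018), 1.68-fold lower in simulated microgravity.

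IREB2, on chromosome 15, encodes the iron regulatory protein that is degraded when iron is plentiful. It was at 52.5, 62.0 and 48.6 CPM in the simulated microgravity libraries, against 41.4, 45.6 and 46.0 CPM in the normal gravity libraries. The groups did not overlap, yet the test did not pass (log2 fold change 0.29, SE 0.12, edgeR adjusted p = 0.064). It passed without normal gravity replicate 3 (0.32, adjusted p = 0.043) and without simulated microgravity replicate 3 (0.37, adjusted p = 0.048).

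**Figure D3:**
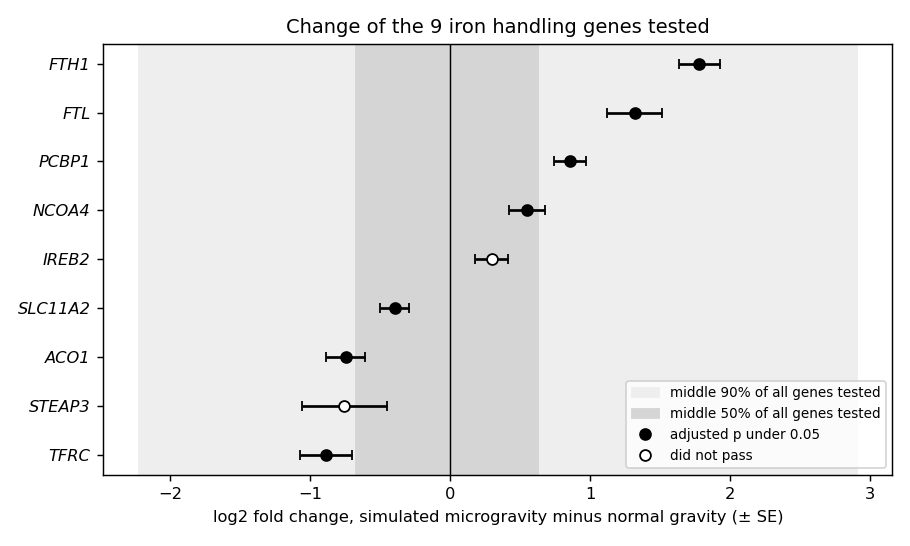
Log2 fold change (simulated microgravity minus normal gravity) with its SE for the 9 members tested, filled where the adjusted p was under 0.05. Grey bands hold the middle 50% and 90% of all genes tested; FTH1, FTL and PCBP1 lie above the inner band, and TFRC, STEAP3 and ACO1 lie below it.

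The order of the members by level, taken per kilobase of transcript, differed between the groups below ferritin. In simulated microgravity FTH1 (6288 ± 441 CPM per kilobase) and FTL (2216 ± 478) were followed by PCBP1 (278 ± 26.0), NCOA4 (219 ± 17.6), TFRC (97.1 ± 24.9), SLC11A2 (16.2 ± 1.75), STEAP3 (12.7 ± 4.6), IREB2 (8.56 ± 1.09) and ACO1 (4.39 ± 0.607). In normal gravity FTH1 (1832 ± 147 CPM per kilobase) and FTL (890.5 ± 137) were followed by TFRC (180 ± 15.5), PCBP1 (154 ± 7.76), NCOA4 (150.2 ± 19.1), STEAP3 (21.5 ± 7.28), SLC11A2 (21.4 ± 0.572), ACO1 (7.38 ± 0.763) and IREB2 (6.98 ± 0.405). The ranges over libraries of SLC11A2 and STEAP3 overlapped in both groups. In normal gravity those of PCBP1 and NCOA4, TFRC and NCOA4, and ACO1 and IREB2 overlapped as well, while in simulated microgravity these pairs were apart and those of STEAP3 and IREB2 overlapped.

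Ratios of counts within a library do not depend on how libraries are scaled. The ratio of ferritin (FTH1 plus FTL) to TFRC counts was 21.0, 14.6 and 25.6 in the simulated microgravity libraries, against 3.06, 3.14 and 3.76 in the normal gravity libraries. The groups were far apart, and the difference was 2.59 on the log2 scale, a 6.01-fold higher ratio in simulated microgravity. With 3 libraries against 3, the two-sided exact permutation test gave p = 0.1, the smallest it can give.

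The ratio of IREB2 to ACO1 counts was 1.6, 1.66 and 1.72 in the simulated microgravity libraries, against 0.721, 0.769 and 0.945 in the normal gravity libraries. IREB2 thus had more counts than ACO1 in each simulated microgravity library and fewer in each normal gravity library. The difference was 1.04 on the log2 scale (exact permutation p = 0.1, again the smallest possible). The ratio of FTH1 to FTL counts was 3.1, 5.33 and 3.96 in the simulated microgravity libraries, against 2.69, 2.4 and 3.77 in the normal gravity libraries. Here the groups overlapped. The difference was 0.48 on the log2 scale (exact permutation p = 0.2), with SDs of 0.39 in simulated microgravity and 0.34 in normal gravity. It was 0.28 without simulated microgravity replicate 2 and at most 0.67 with any other library left out. Adjusted over the 3 ratios computed, the exact permutation p-values were 0.15 for ferritin to TFRC and for IREB2 to ACO1 and 0.2 for FTH1 to FTL.

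**Figure D4:**
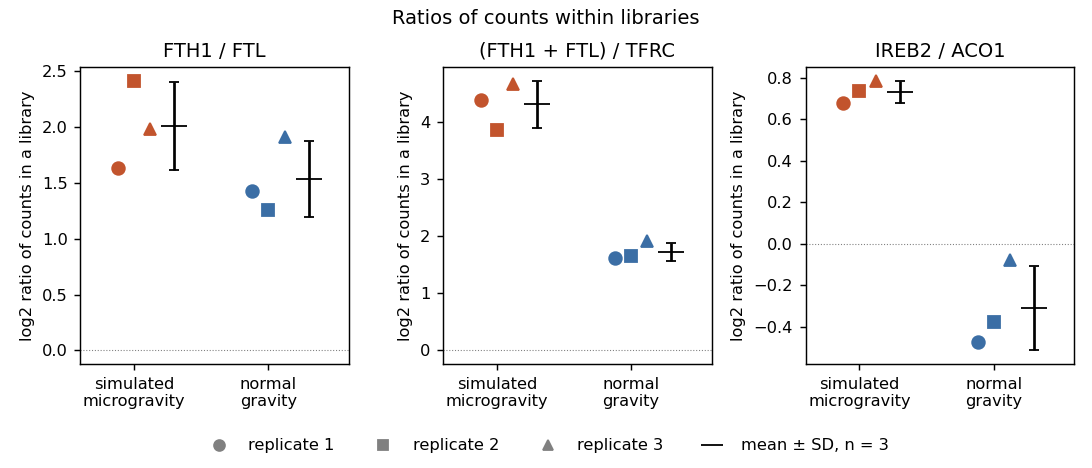
Log2 ratio of counts within each library for 3 pairs, simulated microgravity left and normal gravity right, with a symbol per replicate number and the mean ± SD of 3 libraries. Ferritin to TFRC and IREB2 to ACO1 separate the groups, while FTH1 to FTL overlaps, with normal gravity replicate 3 within the range of simulated microgravity.

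In each group, a single library was the nearest to the other group for most members, and also most often over all genes tested. Simulated microgravity replicate 2 was the library of its group nearest to normal gravity for 7 of the 9 members tested (FTL, TFRC, SLC11A2, NCOA4, ACO1, STEAP3 and PCBP1), and it was so for 50.7% of all genes tested. Normal gravity replicate 3 was the nearest to simulated microgravity for 6 of the 9 members, against 42.8% of all genes tested.

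Other messengers are known as carriers of iron responsive elements, but EPAS1, CDC14A and CDC42BPA held no match, even with 4 pairs, in the transcripts searched here. Of the 5′ list FTH1 and FTL rose, and EPAS1, the gene of the hypoxia factor HIF-2α, did not pass. EPAS1 was at 320.5 ± 55.6 CPM in simulated microgravity and 373 ± 13.2 CPM in normal gravity (log2 fold change -0.22, SE 0.14). Of the 4 genes in the 3′ list TFRC and SLC11A2 fell, and the kinase gene CDC42BPA (log2 fold change 0.22, SE 0.11) and the phosphatase gene CDC14A (-0.30, SE 0.45) did not pass. The value of CDC14A, a gene of few counts, was between -0.84 (without simulated microgravity replicate 1) and -0.02 (without normal gravity replicate 2) when 1 library was left out. The median of the 3′ list was -0.35, against -0.01 over all genes tested. In each of the 2 lists 2 of 4 tested genes were called, and all of these are members described above. Over all genes tested 57.6% were called, 28.2% higher and 29.3% lower, so these counts do not mark the lists out.

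Of 12 tested genes of iron uptake and reduction outside the members, 3 rose and 6 fell, and the median log2 fold change was -0.37. Over all genes tested 28.2% rose and 29.3% fell, with a median of -0.01. Among the called genes, STEAP4 had 38 counts in the normal gravity libraries together, and TFR2 had 30 in the simulated microgravity libraries together. Both entered the test mainly through their counts in the other group, so the list's counts and median are a description only. A stricter low-count filter, set at 1 CPM, left 7 called genes in place of 9. LCN2, a secreted protein that binds iron-loaded siderophores and is also an antimicrobial protein of epithelia, was at 1682 ± 353 CPM in simulated microgravity and 30.9 ± 5.89 CPM in normal gravity (log2 fold change 5.77, SE 0.24). SLC39A8, a zinc, manganese and iron importer, was at 5.87 ± 1.04 CPM in simulated microgravity and 29.5 ± 8.11 CPM in normal gravity (log2 fold change -2.33, SE 0.24). Its relative SLC39A14 also fell, as did CYBRD1, a ferric reductase, while MCOLN1, a lysosomal channel that can release iron, rose. TF, transferrin itself, was below 1 CPM on average in both groups.

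Of 8 tested genes of iron export and the hepcidin axis outside the members, 4 rose, none fell and 4 did not pass. Their median was 1.31, and over all genes tested 28.2% rose and 29.3% fell. Of the 4 that rose, BMP6 and TMPRSS6 had few or no counts in normal gravity and entered the test through their counts in simulated microgravity, so the count and the median are a description only. FURIN, a protease that processes many precursors including that of hepcidin, was at 203 ± 27.2 CPM in simulated microgravity and 40.8 ± 1.35 CPM in normal gravity (log2 fold change 2.32, SE 0.12). BMP6, a ligand that raises hepcidin in the liver, was at 5.38 ± 2.68 CPM in simulated microgravity and 0.158 ± 0.145 CPM in normal gravity (log2 fold change 5.06, SE 0.69). HEPHL1, a copper ferroxidase, rose as well. TMPRSS6, a protease that restrains the hepcidin signal in the liver, had 85 counts in simulated microgravity and 0 in normal gravity. With 3 counts taken as the limit for the normal gravity libraries together, that is at least 30.2-fold higher. The hepcidin gene HAMP and the ferroxidase genes HEPH and CP did not have enough counts to be tested.

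Of 7 partners of ferritin turnover outside the members, 5 rose and none fell, with a median of 0.94, beside 28.2% higher and 29.3% lower over all genes tested. TAX1BP1, an autophagy receptor that binds NCOA4, was at 384 ± 30.1 CPM in simulated microgravity and 187 ± 4.85 CPM in normal gravity (log2 fold change 1.04, SE 0.11). ATG9A, a membrane protein of early autophagosomes, was at 105 ± 8.45 CPM in simulated microgravity and 54.4 ± 4.36 CPM in normal gravity (log2 fold change 0.94, SE 0.11). RB1CC1, PROM2 and CD63 also rose. HERC2, a ubiquitin ligase that acts on NCOA4 when iron is plentiful, did not pass (-0.21, SE 0.10), nor did FBXL5, the ligase that targets IREB2 (-0.06, SE 0.15). FBXL5 is counted again in the list of iron chaperones and sensing.

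Of 10 tested genes of iron chaperones and sensing outside the members, 1 rose and 3 fell (median -0.23). The shares over all genes tested were 28.2% higher and 29.3% lower. EPAS1, CDC14A and CDC42BPA, given above, are among those of this list that did not pass. With simulated microgravity replicate 1 left out only 1 gene of this list was called, and with replicate 3 left out 2 were. SKP1, a subunit of the ligase that contains FBXL5, was at 189 ± 14.1 CPM in simulated microgravity and 136.5 ± 18.1 CPM in normal gravity (log2 fold change 0.47, SE 0.12). GLRX3, a cytosolic iron-sulfur glutaredoxin, was at 83.2 ± 2.89 CPM in simulated microgravity and 126 ± 6.46 CPM in normal gravity (-0.60, SE 0.09). PCBP2 fell (-0.36, SE 0.11), whereas its relative PCBP1 rose.

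Of 20 haem genes tested, 4 rose and 12 fell, with a median of -0.55, beside 28.2% higher and 29.3% lower over all genes tested. The list was not tested as a set. HMOX1, the inducible haem oxygenase that frees iron from haem, was at 29.5 ± 4.33 CPM in simulated microgravity and 1.43 ± 0.672 CPM in normal gravity (log2 fold change 4.37, SE 0.36). SLC48A1, a haem transporter, was at 32.3, 39.0 and 34.9 CPM in the simulated microgravity libraries, against 82.4, 90.9 and 66.8 CPM in the normal gravity libraries (-1.18, SE 0.14). The synthesis genes UROS, UROD, CPOX, PPOX and FECH fell, and ALAS1 and ALAD did not pass. BACH1, a haem-binding repressor of HMOX1 and of the ferritin genes, rose (0.55, SE 0.11).

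Of 27 iron-sulfur cluster and mitochondrial iron genes tested, 2 rose, 14 fell and 11 did not pass, beside 28.2% higher and 29.3% lower over all genes tested. The called share of the list was near that of all genes, and its median was -0.43. BOLA3, a factor of late cluster assembly in mitochondria, was at 6.67 ± 0.872 CPM in simulated microgravity and 26.9 ± 5.05 CPM in normal gravity (log2 fold change -2.01, SE 0.19). The genes of both mitoferrins, SLC25A37 and SLC25A28, fell, as did NFS1, the gene of the cysteine desulfurase. CIAO1, of the cytosolic assembly complex, was at 97.7 ± 3.0 CPM in simulated microgravity and 73.2 ± 4.7 CPM in normal gravity (0.42, SE 0.09). The scaffold gene ISCU did not pass (0.17, SE 0.13).

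**Figure D5:**
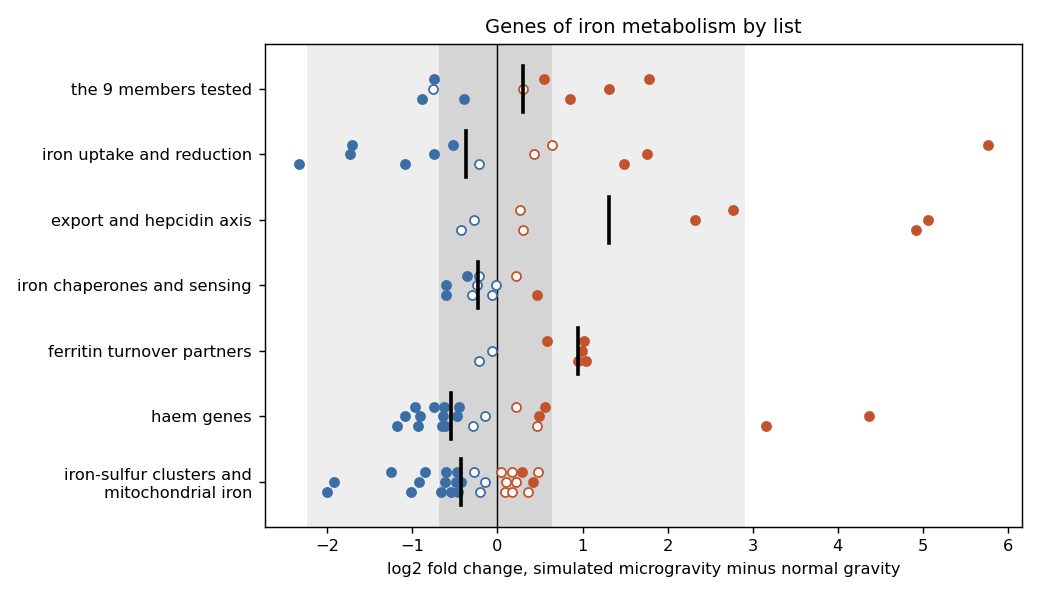
Log2 fold change (simulated microgravity minus normal gravity) of each tested gene in 7 lists, red if above 0 and blue if below, filled where the adjusted p was under 0.05, with the list median as a bar and the middle 50% and 90% of all genes tested in grey. TMPRSS6 is drawn at its bound of 4.92. The medians of haem and iron-sulfur genes lie below 0, at -0.55 and -0.43, and that of ferritin turnover partners above it, at 0.94.

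Ferroptosis is a form of cell death driven by iron and lipid peroxides. The deposited annotation gives the KEGG ferroptosis term to 8 of the 10 members and to 31 further genes, a list added after the data were seen. Of the 26 of those tested, 8 rose and 9 fell, with a median of 0.12, beside 28.2% higher and 29.3% lower over all genes tested. Among the 26, MAP1LC3B and SLC39A8 had the smallest adjusted p in each direction. MAP1LC3B, the LC3 protein of autophagosomes, rose (log2 fold change 1.99, SE 0.17), and SLC39A8 is described above. GPX4, the peroxidase that detoxifies lipid peroxides, fell (-0.44, SE 0.10), and so did ACSL4, which primes membrane lipids for peroxidation (-0.86, SE 0.13). GCLC and GCLM, which make the glutathione precursor, rose. SLC7A11, the cystine importer, did not pass (0.64, SE 0.39).

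Among 10610 genes with a mean of at least 5 CPM, the profiles most like that of FTH1 over the 6 libraries were those of SIRPB2, KLF3 and ZFAND5. Their Euclidean distances from FTH1 in centred log2 CPM were 0.178, 0.183 and 0.224. The profiles nearest to FTL were those of SUN3 (0.165), LATS2 (0.19) and MAP2K3 (0.235). Those nearest to TFRC were RPL24 (0.15), DCAF17 (0.17) and UGGT2 (0.182). With 6 libraries in 2 groups, many genes share such a profile.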

How the data were processed

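The data are RNA-seq of 6 HSC-3 libraries, 3 per group, assigned by their titles. Per the labels' protocols, RNA was isolated with TRIzol and sequenced as paired ends. The values are whole-number, not normalized, read counts per gene as deposited. The submitters' processing notes name the hg38 build and the tools fastp, HISAT, HTSeq, DESeq2 and R 3.2.0 without their roles. No label gives the annotation, strand setting or filters. Count columns named for the rotary culture follow the treatment protocol, and the remaining columns were taken as normal gravity. Whether the replicates came from separate cultures is not said, so p-values reflect the spread between the libraries, which may be technical.

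Low counts were removed with filterByExpr (minimum count 10). Scaling was by TMM and testing by the robust quasi-likelihood F-test of edgeR 4.0.16 in R 4.3.3. The test was first run on simulated data in which far fewer genes changed than were called here. That run therefore could not check the scaling where most genes change. The SE was taken as the size of the log2 fold change over the square root of F. The members and lists were chosen with earlier results of these data known. All members are named, and a few list genes are not reported here. From each list the 2 genes with the smallest adjusted p are named with their values, 1 per direction where genes went both ways. Further list genes were chosen after their values were seen. No list was tested as a set. Alternatives were other scalings and filters, DESeq2 1.42.0, limma-voom (limma 3.58.1), a replicate block, an offset for transcript length and leaving out each library. Hairpins were sought in GENCODE 29 transcripts, 1 per gene by APPRIS rank and length. Gene coordinates are from RefSeq GRCh38.p14.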

Additional observations from a re-analysis of the deposited data

How the results depend on the processing

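FTH1, FTL, TFRC, NCOA4, ACO1 and PCBP1 kept their direction and stayed past the threshold under all 14 alternatives. The log2 fold change of FTH1 ranged from 1.74 to 1.97, that of FTL from 1.18 to 1.53 and that of TFRC from -1.12 to -0.75. SLC11A2 kept its direction, and lost its call (adjusted p = 0.051 by edgeR) only without simulated microgravity replicate 1; leaving out 1 library gave -0.49 to -0.33. IREB2 passed with DESeq2 size factors (0.32, edgeR adjusted p = 0.049) and with the offset for transcript length (0.32, edgeR adjusted p = 0.036), and leaving out 1 library gave 0.19 to 0.37. STEAP3 passed with the DESeq2 Wald test (-0.74), and leaving out 1 library gave -1.07 to -0.45. Calls in the list of chaperones and sensing ranged from 1 to 5 with 1 library left out, and in the 3′ element list from 1 to 2. SKP1 lost its call without simulated microgravity replicate 1, and EPAS1 was called lower without replicate 2. The cause was not tested. Replicate numbers did not pair the libraries: the correlations of deviations between libraries of the same number were 0.049, -0.044 and -0.017. With a replicate block, 3875 genes rose and 3985 fell, against 4157 and 4325 without it, and the block changed the call of no member. The planned addition of pseudogene counts was not run, since no such row was found. The median log2 fold change over the 14736 genes tested was -0.01 and moved by under 0.1 over these genes under each alternative. Over the 22934 genes that the DESeq2 Wald test covers it was 0.11.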
